A study of Mus musculus with 3 samples.

Results

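The domains described here are stretches of the mouse genome that carried peaks of histone H3 trimethylated on lysine 4 (H3K4me3) in granulosa cells 12 h after hCG and at neither of the earlier times. The peak lists of the 3 times were pooled over the autosomes and chromosome X, peaks within 1 kb of each other were merged into domains, and domains with a 12 h peak and no 0 h or 4 h peak were kept. This gave 554 of 14778 domains (3.75%, 95% interval 3.45 to 4.07). The members were thus chosen by the presence or absence of deposited peaks at each time, so that pattern and the covered lengths at each time are descriptions without a test. Cells came from wild type C57BL/6 females at postnatal day 21 to 28, all primed with 4 IU of eCG, a gonadotropin that makes follicles grow. One group was taken before hCG (0 h), one 4 h and one 12 h after 5 IU of hCG, which acts like the ovulatory LH surge. Each time had 1 library, the labels do not say how many mice were pooled for it, and no difference between times could be tested.

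H3K4me3 is laid down on the nucleosomes around active and poised promoters, mostly just downstream of the transcription start, and tends to be broad over CpG-rich starts of highly used genes. After the LH surge granulosa cells leave the cell cycle, remodel the follicle wall and turn into the progesterone-producing cells of the corpus luteum. Interleukin-6 family cytokines, Wnt ligands and angiogenic peptides are among the signals used in that transition.

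The 0 h, 4 h and 12 h lists contain 22208, 23619 and 20644 peaks on these chromosomes, with median widths of 306, 315 and 333 bp. The files give no depth or score, and the 12 h list differs from the others in 2 recorded ways: its peak names lack the nolambda tag and its library ran in lane 5, the others in lane 4. Lane and time cannot be told apart. The granulosa marker list had a peak within 1 kb of a start in 9, 10 and 8 of 14 genes at 0 h, 4 h and 12 h, against 49.8%, 51.4% and 49.5% of all 21631 protein-coding genes. Leukocyte markers had 1 of 26 at each time, endothelial markers 3, 4 and 1 of 18, theca markers 5, 6 and 4 of 11, stromal and smooth muscle markers 1, 2 and 0 of 15, oocyte markers 2 of 17 at each time and erythroid markers 2, 3 and 2 of 12.

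Sequences of 5 promoters are shown because they belong to members described further on and include a CpG-poor cytokine gene and a CpG-rich Wnt gene. Each run is the 250 bases before the start that RefSeq lists nearest to the domain (GRCm38.p6, the same positions as mm10), 5′ to 3′ in the direction of transcription. Capitals mark matches to the 12 motifs spelled out further on.
Il6, chr5:30012864-30013113, plus strand: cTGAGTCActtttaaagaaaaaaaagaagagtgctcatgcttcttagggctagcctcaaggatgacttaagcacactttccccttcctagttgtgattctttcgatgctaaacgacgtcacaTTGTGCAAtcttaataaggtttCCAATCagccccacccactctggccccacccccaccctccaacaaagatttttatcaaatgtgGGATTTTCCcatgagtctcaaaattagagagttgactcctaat
Osmr, chr15:6874314-6874563, minus strand: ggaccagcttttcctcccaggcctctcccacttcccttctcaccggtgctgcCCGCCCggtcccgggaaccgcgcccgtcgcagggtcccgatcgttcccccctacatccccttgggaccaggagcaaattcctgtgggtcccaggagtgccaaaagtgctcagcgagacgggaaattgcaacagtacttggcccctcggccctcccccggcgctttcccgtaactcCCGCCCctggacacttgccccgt
Wnt4, chr4:137277385-137277634, plus strand: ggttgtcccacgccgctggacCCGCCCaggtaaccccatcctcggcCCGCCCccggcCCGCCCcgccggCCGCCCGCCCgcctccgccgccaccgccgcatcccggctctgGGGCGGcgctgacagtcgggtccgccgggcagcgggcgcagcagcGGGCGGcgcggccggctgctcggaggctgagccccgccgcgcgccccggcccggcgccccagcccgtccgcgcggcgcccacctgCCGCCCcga
S100a6, chr3:90612644-90612893, plus strand: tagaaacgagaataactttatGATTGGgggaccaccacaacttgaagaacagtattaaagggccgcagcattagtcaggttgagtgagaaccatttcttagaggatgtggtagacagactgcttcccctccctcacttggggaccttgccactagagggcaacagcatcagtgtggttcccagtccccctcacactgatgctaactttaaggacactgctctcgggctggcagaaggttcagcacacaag
Rpp25, chr9:57503852-57504101, plus strand: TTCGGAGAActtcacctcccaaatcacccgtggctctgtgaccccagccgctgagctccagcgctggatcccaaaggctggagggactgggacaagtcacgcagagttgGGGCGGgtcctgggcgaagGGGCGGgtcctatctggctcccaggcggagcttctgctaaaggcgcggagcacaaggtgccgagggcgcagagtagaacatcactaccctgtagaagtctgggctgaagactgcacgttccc
The domain at Rpp25 spans all 250 bases shown, most of which lie in a gap between its peaks, and the single peak at Osmr covers 137 of them. Those at Wnt4, S100a6 and Il6 begin 179, 317 and 666 bp downstream of the start, past the bases shown. The Il6 run holds one match each to the AP-1, C/EBP, NF-kB and CCAAT box letters, while the Wnt4 run holds 8 matches to the GC box and is 85.2% G or C, against 42.8% for Il6.

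Of 1005 miRNA hairpins in the RefSeq table on these chromosomes, those of Mir190b and Mir137 lay within 1 kb of a domain marked at 12 h only. Their mature sequences are shown with the seed (bases 2 to 8) in capitals, and no 2 of the 4 share a seed.
mmu-miR-190b-5p: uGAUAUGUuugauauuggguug
mmu-miR-190b-3p: aCUGAAUGucaagcauacucuca
mmu-miR-137-5p: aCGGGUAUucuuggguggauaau
mmu-miR-137-3p: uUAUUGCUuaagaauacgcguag
The Mir190b hairpin lay 345 bp from an intergenic domain of 819 bp at chr3:90068857-90069675, which was a single peak. The Mir137 hairpin lay 503 bp from a domain of 271 bp at chr3:118434432-118434702. The nearest 0 h or 4 h peak was 10049 bp away from the domain at Mir190b and 72.6 kb away from the one at Mir137.

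The domains were narrow. Their median width was 201 bp (95% interval of the median 194 to 208), with quartiles of 160 and 278 bp and a range of 152 to 2294 bp. Domains marked at 0 h only had a median of 179 bp (171 to 186), those at 4 h only 179 bp (175 to 187) and those at all 3 times 1236 bp (1224 to 1252). The narrowest peak in the 12 h list has 152 bp, a floor that was 136 bp in the 0 h list and 139 bp in the 4 h list. At that floor lay 80 of the 554 domains (14.4%), against 4.11% of the whole 12 h list. A single peak made up 509 domains, 34 held 2 peaks, 9 held 3 and 2 held 4. Together they held 612 of the 12 h peaks (2.96%) and 1.54% of the length that list covers. Wider than 500 bp were 44 (7.94%, 5.83 to 10.5), against 51 of the 0 h only domains (7.86%, 5.91 to 10.2), 116 of the 4 h only domains (10.4%, 8.70 to 12.4) and 93.2% of domains at all times.

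**Figure D1:**
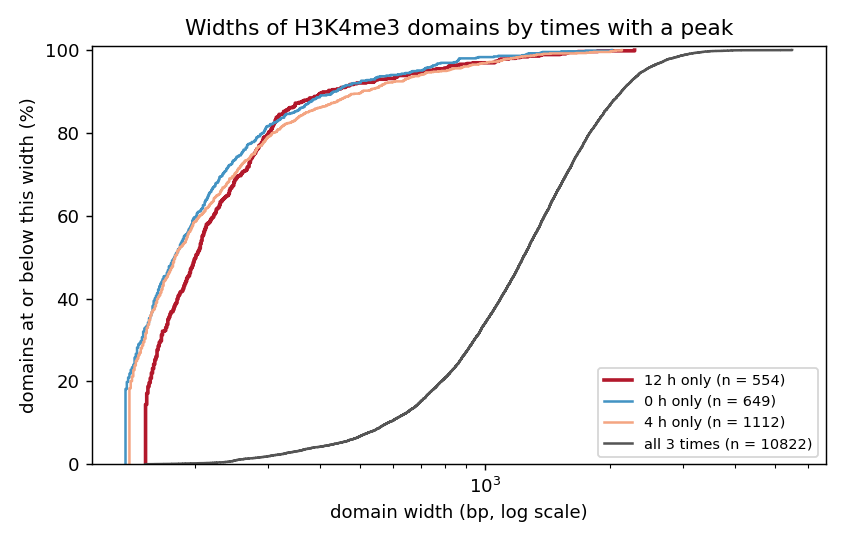
Cumulative share of domains (%) against domain width in bp on a log axis, for domains marked at 12 h only, at 0 h only, at 4 h only and at all 3 times. The 3 sets from a single time rise together near the narrowest peak widths, with medians of 201, 179 and 179 bp, and the domains of all 3 times lie far to the right with a median of 1236 bp.

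Most stretches that carried a peak at 12 h alone were not separate domains. When only touching peaks are merged, 2151 stretches are found at 12 h only, and 1523 of them (70.8%, 68.8 to 72.7) lay within 1 kb of a 0 h or 4 h peak and so joined a domain marked earlier. Another 16 lay beyond 1 kb but were linked to such a domain through other 12 h peaks. Just inside the 1 kb limit were 5 domains whose nearest 0 h or 4 h peak was 1000 to 1100 bp away, with widths of 159 to 364 bp. Just outside it were 13 stretches with a gap of 900 to 1000 bp, with widths of 152 to 549 bp and a median of 171 bp, against 213 bp inside.

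The domains that remained were mostly far from earlier marks. The nearest 0 h or 4 h peak was at a median of 30.6 kb, and 439 of 554 (79.2%, 75.6 to 82.5) had none within 10 kb. Domains at 0 h only had a median of 25.4 kb to the other times (74.0% with none within 10 kb, 70.4 to 77.3), and domains at 4 h only one of 40.9 kb (83.4%, 81.0 to 85.5). Only 65 domains (38 at 1 to 2 kb and 27 at 2 to 5 kb) lay within 5 kb of an earlier peak. Members were also seldom near each other: 19 of 554 (3.43%, 2.08 to 5.30) had another member within 10 kb, against 11 of 649 0 h only and 44 of 1112 4 h only domains.

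**Figure D2:**
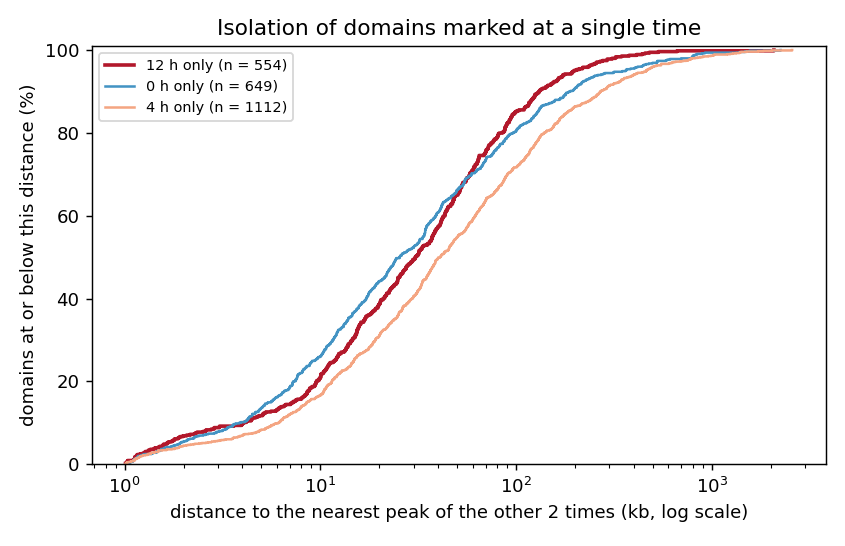
Cumulative share of domains (%) against the distance in kb, on a log axis, to the nearest peak of the other 2 times, for domains marked at 12 h only, 0 h only and 4 h only. The curves begin at the 1 kb merging limit, and their medians are 30.6, 25.4 and 40.9 kb.

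Under the placing rule used here, gene starts held the largest share of the domains without holding most of them. A domain was placed at a gene start when it lay within 1 kb of a protein-coding start listed by RefSeq, or of either end of a gene for which the table lists none. Listed starts were available for 17274 of 21631 genes (79.9%). By this rule 201 domains (36.3%, 32.3 to 40.4) lay at gene starts, 161 of them at a listed start and 40 only at an end of a gene without one, which may be the 3′ end. A further 37 (6.68%, 4.75 to 9.09) lay at a listed lncRNA start, 148 (26.7%, 23.1 to 30.6) elsewhere inside a protein-coding gene and 168 (30.3%, 26.5 to 34.3) in intergenic sequence. The share at gene starts fell to 29.1% with listed starts alone and to 28.7% with a 500 bp window, below that intergenic share. Exons and introns were not separated, since no exon annotation was used here. The share at gene starts was 30.8% (27.3 to 34.5) for 0 h only and 31.1% (28.4 to 33.9) for 4 h only domains, with intervals that overlap that of the 12 h only domains. It was 84.8% (84.1 to 85.5) for domains at all 3 times. The domains above the median width lay at gene starts in 118 of 274 cases (43.1%, 37.1 to 49.2) and the rest in 83 of 280 (29.6%, 24.4 to 35.4).

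**Figure D3:**
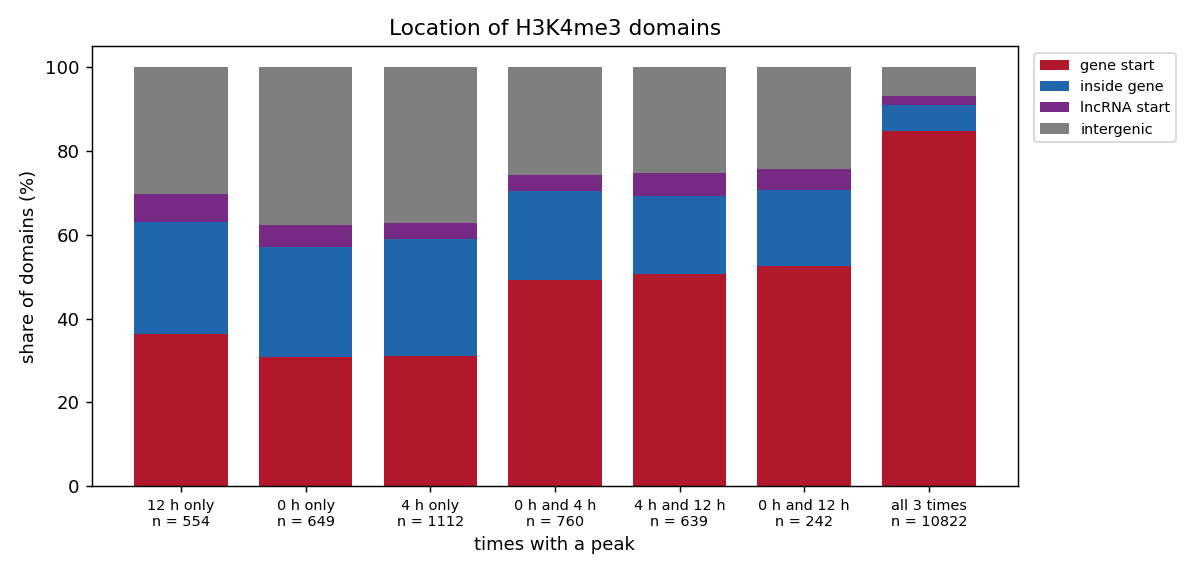
Share of domains (%) at protein-coding gene starts, inside genes, at lncRNA starts and in intergenic sequence, by the times with a peak. Gene starts make up 36.3% at 12 h only, 30.8% at 0 h only, 31.1% at 4 h only and 84.8% at all 3 times.

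At the 161 listed starts, the domain's centre lay downstream of the start in 124 cases (77.0%, 69.7 to 83.3). Over all 161, with upstream centres counted as negative, the median position of the centre was 236 bp downstream. A downstream centre was found for 77.4% of 0 h only domains, 77.3% of 4 h only domains and 84.8% (83.9 to 85.6) of domains at all 3 times. The start itself lay within the span of the domain, gaps between peaks included, in 23 of 161 cases (14.3%, 9.28 to 20.7), against 9.43% (5.38 to 15.1) at 0 h only, 14.8% (10.7 to 19.6) at 4 h only and 53.6% at all 3 times. Chromosome X held 17 domains (3.07%), against 3.54% of those at 0 h only and 4.23% of those at 4 h only. Per chromosome, members made up between 2.19% of the domains (chromosome 16) and 4.81% (chromosome 6).

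In all, 205 of 21631 protein-coding genes had such a domain at a start, which is 0.948% of the genes. For 134 of them (65.4%, 58.4 to 71.9) no 0 h or 4 h peak lay anywhere in the gene or within 5 kb of it. The other 71 genes carried earlier peaks elsewhere in that range, 26 of them at a start with a domain of another pattern. Wnt5b, which encodes a ligand of non-canonical Wnt signalling, is one of these 71 and was picked after its values were seen. Its 12 h only domain of 798 bp lay 103 bp from one listed start, while the gene and its surroundings held 181 bp of peaks at 0 h, 1461 bp at 4 h and 1320 bp at 12 h. Igfbp7, an IGF-binding protein gene also picked afterwards, had a 181 bp domain 669 bp from its listed start, and 626, 611 and 751 bp at 0 h, 4 h and 12 h across the gene.

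The widest domains were of several kinds. Of the 20 widest, all of at least 869 bp, 10 lay at gene starts, 6 inside genes, 2 at lncRNA starts and 2 in intergenic sequence. The widest of all, 2294 bp at chr10:124300549-124302842 with 4 peaks covering 1000 bp, lay 559 kb from the nearest protein-coding gene, Tafa2, and 11.8 kb from the nearest earlier peak. At gene starts the widest was at Rpp25, a subunit gene of RNase P and MRP, with 3 peaks covering 1227 bp at chr9:57503558-57505426 and no earlier peak within 15 kb. S100a6 encodes a small calcium-binding protein and lies in a cluster of S100 genes. It had 4 peaks covering 1277 bp at chr3:90613211-90614885, from 317 bp past its start, and 0 bp at 0 h and at 4 h. The nearest earlier peak was 98.6 kb away, and among the 15 S100a genes on these chromosomes no other had a 12 h only domain at a start or inside the gene.

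Other wide domains at starts lay at genes of varied roles. Hs3st3a1, a heparan sulfate sulfotransferase gene, had 977 bp over a domain of 1351 bp at chr11:64435294-64436644, and the nearest earlier peak was 323 kb away. Gnao1, the gene of the G protein alpha subunit Go, had 1115 bp at chr8:93810922-93812106. Irf5, a transcription factor gene of interferon and inflammatory responses, had 374 bp in 2 peaks that flank its start, at chr6:29526140-29527228. Tmem178 likewise had 374 bp. The calcium channel subunit gene Cacnb4 had 670 bp in 3 peaks around 2 of its 3 listed starts and earlier peaks elsewhere in the gene (876 bp at 0 h and 1100 bp at 4 h). Jakmip3 had a single peak of 1076 bp, and elsewhere in the gene or its 5 kb surroundings 1457 bp of peaks before hCG and 934 bp 4 h after it, and Ston1 had 443 bp with 826 and 983 bp elsewhere. Gsg1l had 661 bp at an end of the gene, whose start is not listed, and a second domain of 163 bp inside it. Rpp25, S100a6, Hs3st3a1, Gnao1, Irf5, Tmem178 and Gsg1l had 0 bp at 0 h and 4 h throughout the gene and the 5 kb around it.

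Inside genes the widest was in Fgd3, which encodes an exchange factor for Cdc42-type GTPases, with 1313 bp in 2 peaks at chr13:49318610-49320196, 9.40 kb from the nearest start. Bcat1, the cytosolic branched-chain amino acid transaminase gene, had 912 bp at chr6:145032892-145034161, 14.7 kb from the nearest start. The partner gene of bHLH-PAS factors Arnt2 and the transporter gene Slc12a8 had 521 and 594 bp. Bbc3, the p53 target gene that encodes the pro-apoptotic protein PUMA, had 367 bp located 1523 bp from a start, with a 4 h peak 1869 bp away. Listed starts of Bbc3 lay within 1 kb of a domain with peaks at 0 h and 4 h and none at 12 h. The second widest intergenic domain, 1516 bp at chr19:27260661-27262176, lay 6.43 kb from Vldlr, a lipoprotein receptor gene, and a second one of 167 bp was assigned to the same gene. The 2 at lncRNA starts were at unnamed gene models.

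**Figure D4:**
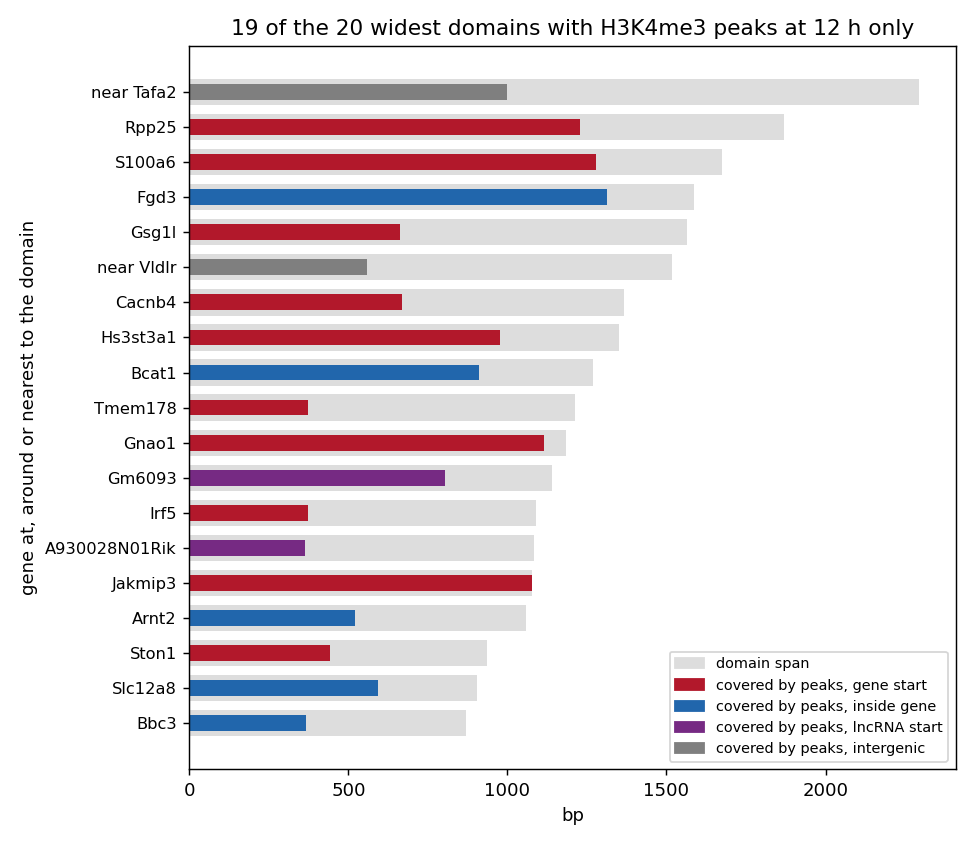
Shown are 19 of the 20 widest domains marked at 12 h only, widest at the top, with the span of the domain (grey bars, bp) and the length covered by 12 h peaks (coloured bars, bp, by location). Fgd3, S100a6 and Rpp25 have the most covered bp (1313, 1277 and 1227), and the domain near Tafa2 has the widest span (2294 bp).

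Members of 19 lists of genes of the ovulatory follicle and of other cells held few of the domains. Of 457 listed genes 10 (2.19%, 1.05 to 3.99) had one at a start, against 0.948% of all genes, and 9 had one inside the gene, against 0.721% of all genes. At 0 h only and at 4 h only, 11 and 18 of the listed genes had a domain at a start, against 0.952% and 1.63% of all genes. The lists of immediate early, steroidogenesis and luteinization, cholesterol, cell cycle, matrix protease, housekeeping and unrelated lineage genes had no member with a 12 h only domain at a start. The LH-response list had 1 of 40 (Il6), the follicular growth list 1 of 31 (Wnt4) and the angiogenic list 1 of 41 (Apln).

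The cytokine list had the most such genes, while the surface epithelium list had a higher share (3 of 12, 25%). Il6, Il6ra, Osmr and Tnfrsf11a, 4 of 45 cytokine list genes (8.89%), had a domain at a start, against 0.948% of all genes. Lif had one inside the gene, against 0.721% of all genes. At 0 h only the cytokine list had 1 (Il11ra1), against 0.952% of all genes. At 4 h only it had 2 (Tnfsf11 and Cxcl2), against 1.63%. Il6 encodes the cytokine itself, with a role in cumulus expansion and inflammation. It had 0 bp at 0 h, 0 bp at 4 h and 547 bp at 12 h, in peaks of 380 and 167 bp at chr5:30013780-30014394, 58.1 kb from the nearest earlier peak. Il6ra, the gene of its ligand-binding receptor, had 0, 0 and 202 bp at chr3:89913321-89913522, just upstream of its start. Osmr, the receptor subunit gene for oncostatin M, had 0, 0 and 336 bp at chr15:6874427-6874762. Lif, the leukemia inhibitory factor gene, had 0, 0 and 514 bp at chr11:4266799-4267414, 9.23 kb downstream of its listed start. Tnfrsf11a, which encodes the receptor RANK, had a single peak at the 152 bp floor.

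Of the 9 genes of the IL-6 family, grouped after the values were seen, 3 thus had a 12 h only domain at a start and 1 inside, against 0.948% and 0.721% of all genes. Il6st, the shared signal-transducing subunit gene, had 1098, 1059 and 1339 bp at 0 h, 4 h and 12 h in the gene and the 1 kb around it. Lifr had 1351, 1020 and 342 bp, and Il11ra1 had 251, 0 and 0 bp. Il11 and Osm had 0 bp at each time. The family therefore held members with marks at 12 h alone, at all times, at 0 h alone and at no time.

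Among Wnt genes, Wnt4, a gene of granulosa cell identity and luteal function, had 0, 0 and 434 bp in 2 peaks at chr4:137277814-137278632. Grouped after the values were seen, 2 of 19 Wnt genes (Wnt4 and Wnt5b) had a 12 h only domain at a start, against 0.948% of all genes, and Wnt5a had one of 152 bp inside the gene besides peaks of 232 bp at 4 h and 152 bp at 12 h near one of its ends. Apln, on the angiogenic list, encodes the vascular peptide apelin and had 301 bp at chrX:48034194-48034494, 359 bp from its start. On the same list Edn2, the endothelin gene induced around follicle rupture, had 240 bp located 1798 bp from its start. Notch4, Sema3f and Nrp2 had 276, 213 and 171 bp inside the gene. Notch4 also had peaks of 322, 595 and 677 bp at 0 h, 4 h and 12 h elsewhere. On the follicular growth list Bmpr1b, a BMP receptor gene, had 198 bp inside the gene and Igf1 a single 12 h only peak of 152 bp inside it. Both genes were also marked earlier. A domain marked at every time lay near listed starts of Bmpr1b. Near its listed start Igf1 also had peaks of 623 and 763 bp at 0 h and of 541 and 407 bp at 4 h. The 12 h peak there had 584 bp. Loxl2, a lysyl oxidase gene, had a 12 h only domain of 206 bp inside the gene. Intergenic domains were nearest to the cholesterol exporter gene Abca1 (270 bp, 27.4 kb away) and to Ywhaz (171 bp, 63.2 kb away).

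Markers of other cells appeared as well. Of 12 surface epithelium genes, 3 had a 12 h only domain at a start or gene end, against 0.948% of all genes. These were Wt1 (304 bp), the stem cell marker gene Lgr5 (172 bp) and the tight junction gene Cldn1 (152 bp). Lgr5 also had a 4 h peak of 140 bp inside the gene at chr10:115585716-115585855, and its 12 h only domain begins at position 115587016. Another gene of the surface epithelium list, Krt18, had a 0 h only domain at a start, against 0.952% of all genes. That list had a peak within 1 kb of a start in 2, 1 and 4 of 12 genes at 0 h, 4 h and 12 h, against 49.8%, 51.4% and 49.5% of all genes. Wt1 encodes a transcription factor that granulosa cells of young follicles also express. Kit, a receptor gene on the oocyte list, had 174 bp, and Pdgfra, on the stromal list, 192 bp inside the gene. The endothelial, leukocyte, theca, erythroid and granulosa lists had none at a start or inside a gene. In bulk cells, a mark in few cells and a weak mark in many cannot be told apart, and the part of other cell types in these domains was not tested.

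Genes with more than 1 such domain at, inside or nearest to them were few. Hspb1, the small heat shock protein gene HSP27, had peaks of 209 bp (267 bp upstream of its start) and 327 bp (768 bp downstream of it), with 0 bp at 0 h and 4 h. Mid1, on chromosome X, had domains of 278, 156 and 153 bp. It was also marked earlier, with 2160, 2531 and 2680 bp of peaks at 0 h, 4 h and 12 h across the gene and the 5 kb around it. The teneurin gene Tenm4 had 361 and 289 bp inside the gene, Cemip, a hyaluronan-degrading factor gene, 449 bp at its start and 153 bp nearby, and the glucocorticoid-induced gene Tsc22d3 218 and 182 bp. Zc3h12c, Fcgr3 and Tcf4 had pairs of at most 200 bp each. The pair of Tcf4 lay inside the gene, while those of Zc3h12c and Fcgr3 were intergenic and assigned by the nearest gene end. Mid1 and Tsc22d3 each had an intergenic domain among those given. The domains farthest from any gene, besides the one near Tafa2, lay 495 kb from Hnf4g (248 bp), 361 kb from Olfr161 (243 bp), 338 kb from Mn1 (243 bp) and 282 kb from Tank (172 bp).

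Other genes with a domain at a start, picked after their values were seen, include Ptgs1, the constitutive prostaglandin synthase gene, with 704 bp at chr2:36230597-36231449, 171 bp from its start. Bcl3, an NF-kB cofactor gene, had 292 bp at its start and a further 648 bp at a lncRNA start within it. The secreted matrix protein gene Spp1 had 153 bp, Lgals3, the galectin-3 gene, 164 bp and Met, the receptor gene for hepatocyte growth factor, 199 bp. Each of these 5 genes had 0 bp at 0 h and at 4 h across the gene and the 5 kb around it.

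Promoter sequence does not enter the rule. Over the 300 bases RefSeq gives per start (250 before and 50 after it), the 173 starts whose nearest domain was a 12 h only one had a median CpG ratio, observed over expected, of 0.65 (quartiles 0.46 and 0.82). Starts next to a 0 h only domain had 0.62, those next to a 4 h only domain 0.66, those next to a domain of all 3 times 0.81 and those with no domain within 1 kb 0.23. A ratio of at least 0.6 was found at 57.2% (49.5 to 64.7) of the 12 h only starts, against 54.2% (46.6 to 61.7) at 0 h only, 58.3% (52.4 to 64.0) at 4 h only, 81.4% (80.6 to 82.2) at all 3 times and 13.1% (12.5 to 13.8) with no domain. By this interval the 12 h only starts lay between constantly marked and unmarked starts and overlapped the other single times. The interval counts each start separately, although the 173 starts belong to 156 genes. Among the starts shown above, the ratio was 0.98 at Wnt4, 0.71 at Osmr, 0.56 at Rpp25, 0.33 at S100a6 and 0.21 at Il6.

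**Figure D5:**
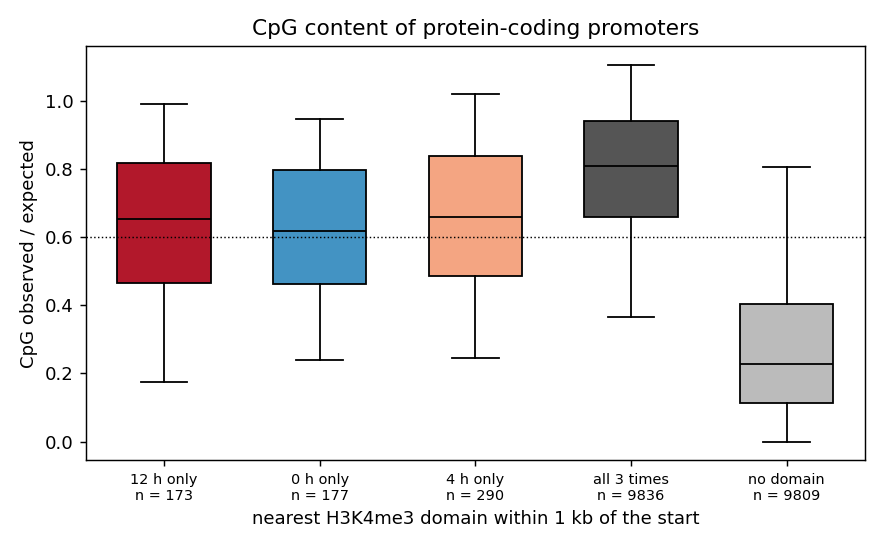
CpG ratio (observed over expected, no unit) in the 300-base windows at protein-coding starts, by the nearest domain within 1 kb. Boxes show quartiles and medians, whiskers the 5th and 95th percentiles and the dotted line a ratio of 0.6; the median is 0.65 at 12 h only, between 0.81 at all 3 times and 0.23 with no domain.

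The 12 motifs were searched on both strands of the same windows, and matches to different motifs may share bases. The GC box (GGGCGG) was found at 63.0% of the 173 starts, against 46.7% of all 21045 listed starts and 69.7% of starts next to domains of all 3 times. The TATA box (TATAAA) was found at 7.51%, against 12.7% of all starts, and the CCAAT box (CCAATC) at 15.0%, against 18.4%. The E-box (CACGTG) was at 12.1% against 7.91%, AP-1 (TGANTCA) at 7.51% against 7.04% and the cyclic AMP response element (TGACGTCA) at 1.73% against 2.26%. Motifs of C/EBP (TTGCNNAA, 8.67% against 10.3%), NR5A receptors (CAAGGNCA, 5.20% against 5.79%) and STAT factors (TTCNNNGAA, 5.78% against 7.76%) were found at shares within 3 percentage points of those of all starts. The same held for RUNX (TGTGGTNA, 2.31% against 3.88%) and NF-kB (GGANTTTCC, 3 starts, 1.73% against 1.29%). The letters AGATAA, known as a binding motif of Gata factors, were at 5.20% against 9.68%. At starts next to 0 h only and 4 h only domains, AGATAA was at 7.91% and 4.83% and the TATA box at 5.65% and 9.31%. There the GC box was at 57.1% and 62.4%, the E-box at 8.47% and 5.52% and the CCAAT box at 22.0% and 22.4%. Starts next to domains of all 3 times had the E-box at 10.5%, AGATAA at 5.09%, the TATA box at 5.60% and the CCAAT box at 21.9%. Next to domains with peaks at 0 h and 4 h and none at 12 h, the E-box was at 14.6%. The start of Il6, shown above, is one of those with the NF-kB letters. A match describes these letters and not a bound site.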

How the data were processed

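H3K4me3 chromatin immunoprecipitation libraries, amplified for 18 PCR cycles per the labels' protocols, were compared as deposited. The authors' files are 1 peak list per library, with the start and end of each peak in bp and no score or other measure. Bowtie2 2.2.3, MACS2 2.0.9, CASAVA 1.8 and the mm10 build are named in the submitters' processing notes. No threshold or control for the peaks is stated there. Depth is unknown, and 95% Clopper-Pearson intervals cover counting error only. Domain merging, annotation and figures used Python 3.11.15, numpy 2.4.6, pandas 2.3.3, scipy 1.17.1 and matplotlib 3.10.9, with the merging and placing checked on simulated peaks. Starts, strands and sequences are from RefSeq GRCm38.p6. With 1 library per time no test was run. Members and lists were chosen with earlier results of these data known. Named genes are the 20 widest domains, list members with a domain (up to 25 at starts and 10 elsewhere), up to 10 genes with 2 or more domains and the 5 domains farthest from genes. Alternatives were merging distances, narrow peaks left out, equal peak numbers and start windows. Chromosomes Y and M were left out, and 1 of the 20 widest domains is not reported here.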

Additional observations from a re-analysis of the deposited data

How the results depend on the processing

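No paired analysis was possible because each time had 1 library and no result comes from a test. The number of domains (554) was 456 to 725 under merging within 500 bp, 2 kb or 5 kb, with peaks below the 25th width percentile left out, or with the 20644 widest peaks of each list. With merging of touching peaks only it was 2151, with 50.5% at gene starts, 15.3% intergenic and 1104 genes with a domain at a start, since flanks of earlier domains then count. With narrow peaks left out the median width was 285 bp, 49.1% lay at gene starts and 23.7% were intergenic. In that setting 236 of the 554 domains were kept, 19 of the 20 widest among them (without Bbc3), with Il6, Lif, Osmr, Wnt4, Wt1 and Apln but without Il6ra, Kit, Lgr5, Tnfrsf11a and Cldn1. With merging within 5 kb 487 were kept, without Bbc3 and Lgr5 among the named ones tracked. Windows of 500 and 2500 bp around starts gave shares of 28.7% and 43.5%, and genes with a listed start alone, an alternative chosen after seeing the data, 29.1%. Genes with a domain at a start numbered 160 to 286 under the settings other than touching peaks only.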
